A study of Mus musculus with 12 samples.

Results

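Hepatocyte identity transcription factors are the DNA-binding proteins that set up and hold the gene programme of the liver cell. The 8 genes followed here were Cebpa, Onecut1 (HNF6), Prox1, the winged-helix genes Foxa1, Foxa2 and Foxa3, and the zinc-finger genes Gata4 and Gata6. They are 8 of the 18193 genes that had a probe set assigned to 1 gene symbol, and they were read by 14 probe sets of the 45037 tested. Where a gene had several probe sets, the one with the highest mean over all 12 arrays gave its level. The expression values were log2 RMA levels of whole liver homogenate on Affymetrix mouse genome arrays, with 4 groups of 3 animals each. The groups were Atf6a-/- mice given tunicamycin (TM) at 1 mg/kg, wild-type mice given the same dose of TM, Atf6a-/- mice given vehicle, and wild-type mice given vehicle, where vehicle was 150 mM dextrose by itself. TM inhibits N-linked glycosylation and so causes ER stress, and ATF6α is an ER stress sensor that was missing from every cell of the Atf6a-/- animals. Animals of either genotype varied in age and sex, neither is given per animal, and all were fasted before sacrifice. Livers were taken 34 h after injection by the sample titles and the protocol, although 1 other label field reads 8 h. Levels are not set against each other between genes, because probe sets differ in how well they bind.

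In the adult liver, C/EBPα drives genes of gluconeogenesis, bile acid and lipoprotein handling, and it keeps hepatocytes out of the cell cycle. FOXA proteins bind compacted chromatin and open liver enhancers for other factors, ONECUT1 and the nuclear receptor HNF4α bind many of the same enhancers, and PROX1 is a homeodomain corepressor that is needed for hepatoblast migration and that dampens bile acid and lipid genes. GATA4 and GATA6 act with FOXA proteins when the liver bud forms, and in the adult organ GATA4 is also made by endothelial and stellate cells. PROX1 also marks lymphatic endothelium, and ONECUT1, FOXA1 and FOXA2 are also made by bile duct cells. In homogenised liver, fewer cells of a type and less RNA per cell cannot be told apart.

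Cebpa, Onecut1 and Prox1 were the members that changed, and all of them fell. Cebpa fell with TM in both genotypes, and Onecut1 and Prox1 passed the test with TM only in the Atf6a-/- fit, which does not by itself show that the genotypes differ. A change was called at a Benjamini-Hochberg adjusted p under 0.05 over all probe sets together with a difference above 1.5-fold, in a limma fit of all 12 arrays. In Atf6a-/- livers after TM against Atf6a-/- livers after vehicle, 3 of 8 members were called lower, where 9.18% of all probe sets were called lower and 11.9% higher. In wild-type livers after TM against wild-type livers after vehicle, 1 of 8 was called lower, where 2.61% of all probe sets were called lower and 2.62% higher. In Atf6a-/- against wild-type livers after TM, 3 of 8 were lower in Atf6a-/- livers, where 5.85% of all probe sets were lower and 8.49% higher. For the difference between the genotypes in their TM response, 2 of 8 were called on the lower side, where 4.51% of all probe sets were lower and 5.62% higher. After vehicle, 0 of 8 members differed between Atf6a-/- and wild-type livers, and 0.00222% of all probe sets did. No member was called higher in any of the 5 comparisons. With 8 genes, a share of them is coarse, and the counts are given for the members as listed, without a test of the list.

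**Figure D1:**
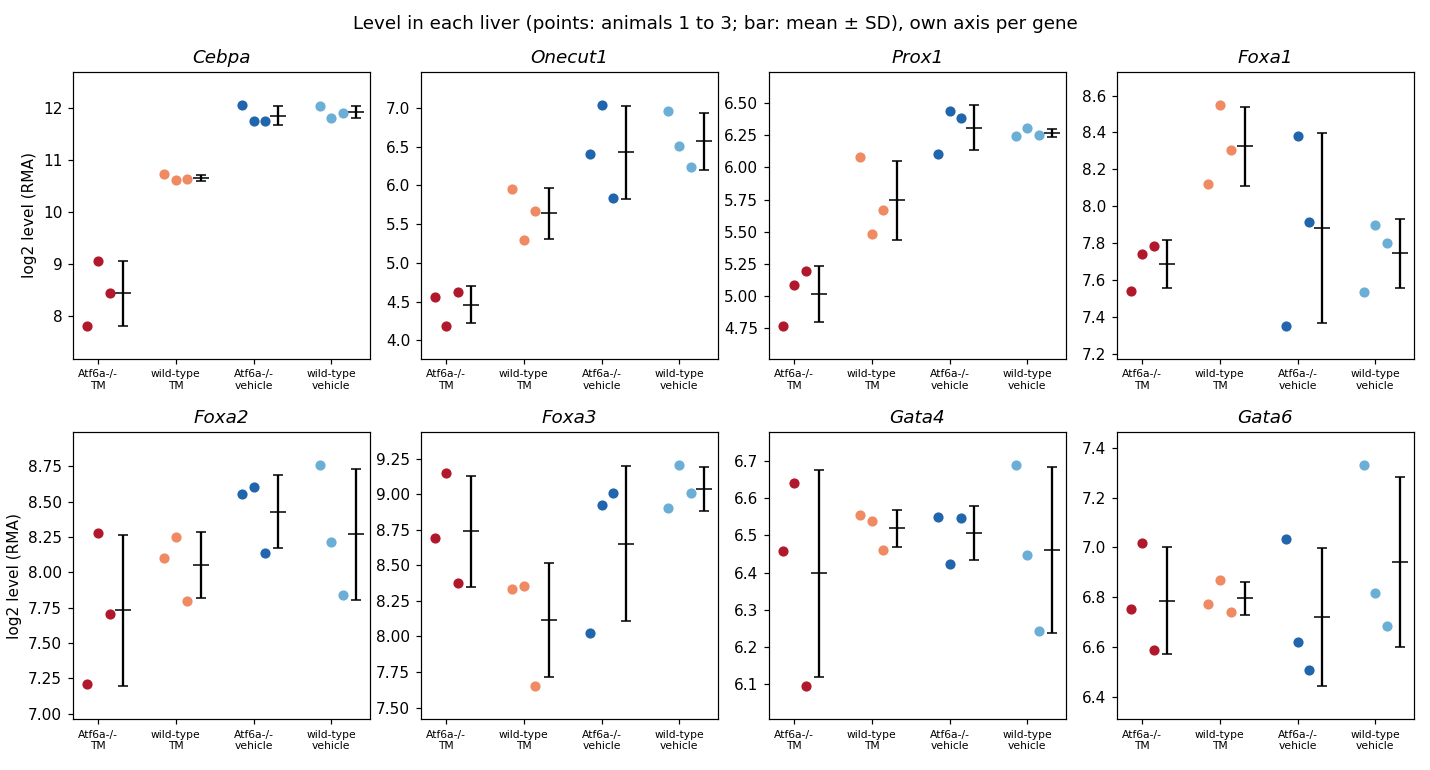
Log2 RMA level (y axis, own scale for each gene) of the 8 factors in each liver, by group on the x axis, with points for animals 1 to 3 and a bar for the mean ± SD. The Cebpa levels of Atf6a-/- TM livers lie between 7.81 and 9.07, below all other livers, while the Gata4 and Gata6 levels of the 4 groups overlap.

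The start sites of these genes can be read from RefSeq on the build GRCm38.p6, in windows of 300 bases that run from 250 before to 50 after a start. There were 9 such windows for 6 members (3 for Foxa2, 2 for Prox1 and 1 each for Cebpa, Onecut1, Foxa1 and Foxa3). Both strands were searched for short letter strings of liver factors, 1 each for C/EBP, FOXA, ONECUT, GATA, HNF4, HNF1 and NF-Y, which are spelled out with the results. A window of each of the 3 members that changed is shown (1 of the 2 for Prox1), followed by 2 FOXA gene windows that hold strings of the factors themselves. Capitals mark a string found, on either strand. The windows are Cebpa at chr7:35119043-35119342 (plus strand), Onecut1 at chr9:74861671-74861970 (plus strand), Prox1 at chr1:190170778-190171077 (minus strand), Foxa1 at chr12:57546062-57546361 (minus strand) and Foxa2 at chr2:148046920-148047219 (minus strand).
Cebpa: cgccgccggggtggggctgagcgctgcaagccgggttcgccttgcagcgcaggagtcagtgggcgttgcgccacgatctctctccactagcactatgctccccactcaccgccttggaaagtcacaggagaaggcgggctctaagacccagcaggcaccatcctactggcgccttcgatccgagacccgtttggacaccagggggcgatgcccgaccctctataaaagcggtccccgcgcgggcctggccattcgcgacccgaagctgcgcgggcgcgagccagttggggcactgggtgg
Onecut1: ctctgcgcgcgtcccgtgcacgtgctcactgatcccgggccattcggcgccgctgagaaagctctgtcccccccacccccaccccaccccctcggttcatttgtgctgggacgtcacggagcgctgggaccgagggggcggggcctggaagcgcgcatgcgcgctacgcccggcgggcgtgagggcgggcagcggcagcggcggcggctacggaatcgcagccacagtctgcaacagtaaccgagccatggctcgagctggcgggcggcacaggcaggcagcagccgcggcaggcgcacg
Prox1: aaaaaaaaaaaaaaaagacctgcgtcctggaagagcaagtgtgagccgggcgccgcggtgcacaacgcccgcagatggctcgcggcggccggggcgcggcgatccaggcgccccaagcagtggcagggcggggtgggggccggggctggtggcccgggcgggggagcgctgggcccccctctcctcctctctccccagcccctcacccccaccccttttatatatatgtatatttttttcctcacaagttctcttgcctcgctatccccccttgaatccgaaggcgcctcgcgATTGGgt
Foxa1: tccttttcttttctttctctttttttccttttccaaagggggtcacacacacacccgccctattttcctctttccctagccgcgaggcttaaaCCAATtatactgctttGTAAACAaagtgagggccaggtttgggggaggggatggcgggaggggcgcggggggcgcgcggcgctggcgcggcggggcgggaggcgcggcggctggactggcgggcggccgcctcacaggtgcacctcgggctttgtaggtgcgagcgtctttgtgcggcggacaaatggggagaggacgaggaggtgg
Foxa2: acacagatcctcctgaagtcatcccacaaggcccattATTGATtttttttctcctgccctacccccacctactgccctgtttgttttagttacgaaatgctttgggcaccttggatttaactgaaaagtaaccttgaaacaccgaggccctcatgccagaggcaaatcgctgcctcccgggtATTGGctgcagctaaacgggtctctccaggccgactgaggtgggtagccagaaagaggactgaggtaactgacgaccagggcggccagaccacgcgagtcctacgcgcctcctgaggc
The Cebpa and Onecut1 windows held none of the 7 strings. The Prox1 window shown held only the NF-Y string (CCAAT), 43 bases after the start. The Foxa1 window held the FOXA string (TGTTTAC) 141 bases before the start, a string found in 3.6% of 32851 promoter windows of the same length. The Foxa2 window shown held the ONECUT string (ATCAAT) 213 bases before its start, found in 7.5% of windows. A second Foxa2 window held the GATA string (AGATAA) 183 bases before its start, found in 11.2% of windows. The same window held the HNF1 string (GTTAAT) 176 bases before its start, found in 7.1% of windows. The NF-Y string is common, with 37.4% of windows holding it, and it was also in the Foxa1, Foxa3 and first Foxa2 windows. No member's window held the C/EBP string (TTGCNNAA), which is in 10.8% of windows. Nor did any hold the HNF4 string (AAGTCCA), which is in 4.2% of windows. These are letter matches in short windows and say nothing of binding, or of enhancers elsewhere.

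Cebpa, the gene of the bZIP factor C/EBPα, was the member called in both genotypes. Its measured difference with TM was larger than that of the other 7, although that of Onecut1 in Atf6a-/- livers may be understated. Its level was 7.81, 9.07 and 8.43 in Atf6a-/- TM livers, against 12.06, 11.76 and 11.75 in Atf6a-/- vehicle livers. It was 10.73, 10.61 and 10.63 in wild-type TM livers, against 12.04, 11.81 and 11.91 in wild-type vehicle livers. The 3 Atf6a-/- TM livers were thus the lowest of all 12 and spread most (SD 0.63, against 0.06 for wild-type TM, 0.18 for Atf6a-/- vehicle and 0.12 for wild-type vehicle, n = 3 each), and the wild-type TM livers stood between them and the vehicle livers without overlap. The fall with TM in Atf6a-/- livers was 3.42 ± 0.24 on the log2 scale (difference -3.42, SE, 10.7-fold, limma adjusted p = 6.41e-07). The fall in wild-type livers was smaller, at a difference of -1.26 ± 0.24 (2.40-fold, limma adjusted p = 0.00659). Directly between genotypes after TM, Cebpa was 4.65-fold lower in Atf6a-/- livers (difference -2.22 ± 0.24, limma adjusted p = 4.61e-05). The 2 responses differed by -2.16 ± 0.33 (limma adjusted p = 0.00161), so that the larger fall in Atf6a-/- livers was beyond the spread between animals. After vehicle the genotypes differed by -0.06 ± 0.24, with a 95% interval of -0.58 to 0.45. Leaving out any 1 of the 12 animals kept all 4 of these TM calls, with the Atf6a-/- fall between -3.73 and -3.11 and the difference of the responses between -2.47 and -1.84.

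Onecut1, the gene of the cut-homeodomain factor HNF6, was lowest, and dim on its probe set, in Atf6a-/- TM livers. Its level was 4.56, 4.19 and 4.63 in Atf6a-/- TM livers, against 6.41, 7.04 and 5.84 in Atf6a-/- vehicle livers. These 3 levels of Atf6a-/- TM livers were beneath 4.71, which is the highest median of any array, so the true level may be lower and no fold is given. The level was 5.95, 5.29 and 5.68 in wild-type TM livers, against 6.97, 6.51 and 6.24 in wild-type vehicle livers, again without overlap. The difference with TM in Atf6a-/- livers was -1.97 ± 0.28 (limma adjusted p = 1.88e-04), a size that the dim level may understate. In wild-type livers it was -0.93 ± 0.28 and did not pass (limma adjusted p = 0.0781). Between genotypes after TM it was -1.18 ± 0.28 (limma adjusted p = 0.0109), which may be understated in the same way. The difference between the responses, -1.04 ± 0.40, did not pass (limma adjusted p = 0.143, 95% interval -1.91 to -0.16), so the Atf6a-/- fall was not shown to be the larger. The wild-type difference of Onecut1 passed in 5 of 27 alternative settings and the difference between the responses in 3 of 24. A dimmer second probe set of Onecut1 gave -1.18 with TM in Atf6a-/- livers (limma adjusted p = 0.0129) and -1.03 with TM in wild-type livers (limma adjusted p = 0.0792). Both sizes may be understated. Its means in Atf6a-/- TM and in wild-type TM livers were both beneath 4.71, so the genotypes after TM could not be compared on it.

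Prox1, the prospero-related homeobox corepressor, was read by 3 probe sets, which moved the same way. On the brightest, the level was 4.77, 5.09 and 5.19 in Atf6a-/- TM livers, against 6.11, 6.44 and 6.38 in Atf6a-/- vehicle livers. It was 6.08, 5.48 and 5.67 in wild-type TM livers, against 6.24, 6.31 and 6.26 in wild-type vehicle livers. Atf6a-/- TM livers were below every other liver, and wild-type TM livers were below wild-type vehicle livers, with animal 1 of the wild-type TM group close to them. Prox1 fell 2.45-fold with TM in Atf6a-/- livers (difference -1.29 ± 0.16, limma adjusted p = 5.13e-05). The wild-type difference of -0.52 ± 0.16 did not pass (limma adjusted p = 0.0753). Without wild-type TM animal 1 it was -0.69 (limma adjusted p = 0.0158) and was called. Between genotypes after TM, Prox1 was 1.66-fold lower in Atf6a-/- livers (difference -0.73 ± 0.16, limma adjusted p = 0.00591), and without that same animal the difference was -0.56, under the 1.5-fold limit. With spike-in scaling, which moved the median of all probe sets by 0.21 there, it was -0.52 and also under that limit. The responses differed by -0.77 ± 0.22 (limma adjusted p = 0.0476), a call that was lost in 9 of the 12 fits that left out 1 animal, where the adjusted p reached 0.113. The other probe sets gave -1.81 and -1.46 with TM in Atf6a-/- livers, both called. Their Atf6a-/- TM means of 4.01 and 3.87 were again beneath 4.71, so these differences may be understated in size. Between genotypes after TM the brighter of these probe sets gave -1.31, also called and possibly understated in size. On the dimmest the wild-type TM mean, 4.70, was beneath 4.71 as well, so no size is given there.

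**Figure D2:**
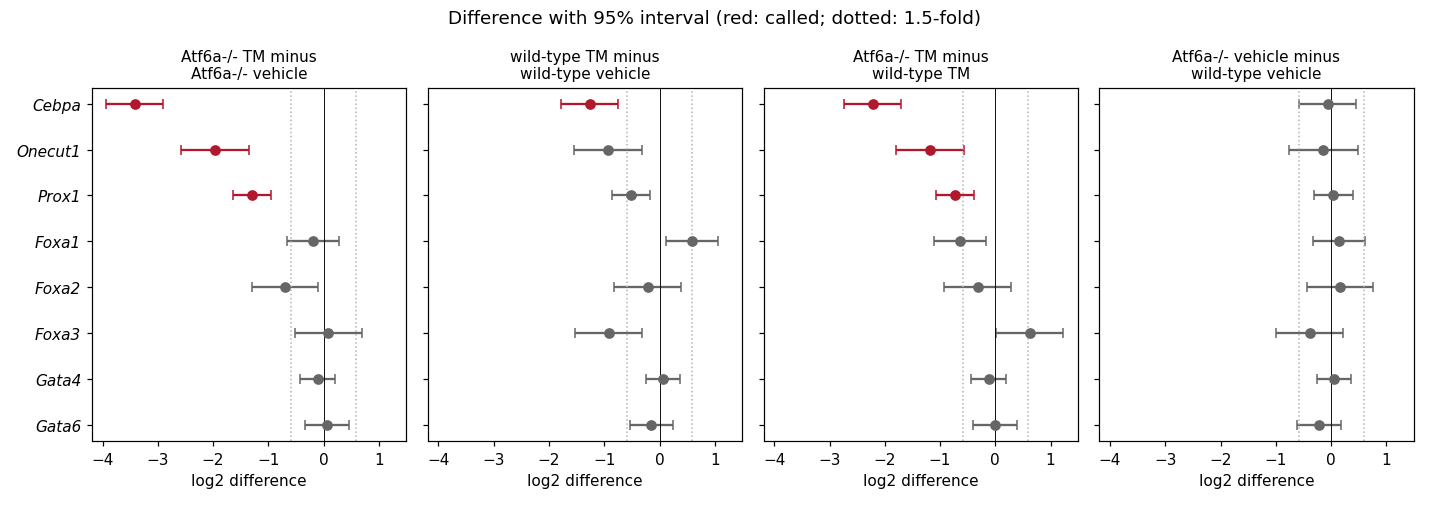
Log2 difference (x axis) of each factor (y axis) with its 95% interval from the limma fit, in 4 panels: Atf6a-/- TM minus Atf6a-/- vehicle, wild-type TM minus wild-type vehicle, Atf6a-/- TM minus wild-type TM, and Atf6a-/- vehicle minus wild-type vehicle. Red marks a called change and dotted lines mark 1.5-fold; Cebpa is red in 3 panels, Onecut1 and Prox1 in 2, and no factor in the vehicle panel.

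The 3 Foxa genes, which encode the pioneer factors FOXA1, FOXA2 and FOXA3, had differences of unlike sign, and none passed the test in any comparison. Foxa1 was 7.54, 7.74 and 7.78 in Atf6a-/- TM livers, 8.12, 8.55 and 8.31 in wild-type TM livers, 7.35, 8.38 and 7.92 in Atf6a-/- vehicle livers and 7.54, 7.90 and 7.80 in wild-type vehicle livers. The wild-type TM livers were above both the Atf6a-/- TM and the wild-type vehicle livers without overlap. The Foxa1 difference was 0.58 ± 0.22 with TM in wild-type livers (limma adjusted p = 0.158), -0.20 ± 0.22 with TM in Atf6a-/- livers (limma adjusted p = 0.581) and -0.64 ± 0.22 between genotypes after TM (limma adjusted p = 0.0613). The last was near the threshold and passed it in 9 of 26 alternative settings, with values between -1.07 and -0.43.

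Foxa2 was 7.21, 8.28 and 7.70 in Atf6a-/- TM livers, 8.10, 8.25 and 7.80 in wild-type TM livers, 8.55, 8.60 and 8.13 in Atf6a-/- vehicle livers and 8.76, 8.21 and 7.84 in wild-type vehicle livers. The groups overlapped in each comparison. The difference with TM was -0.70 ± 0.27 in Atf6a-/- livers (limma adjusted p = 0.0829) and -0.22 ± 0.27 in wild-type livers (limma adjusted p = 0.774). Without Atf6a-/- TM animal 2, the highest of its group, the Atf6a-/- difference was -0.97 (limma adjusted p = 0.0175) and was called. Foxa2 was called there in 4 of 26 alternative settings. With each array scaled to 2 reference genes (Btf3 and Ppia), which moved the median of all probe sets by -0.52, Foxa2 was -1.21 and Foxa1 -0.71 with TM in Atf6a-/- livers, both called. Btf3 was itself higher after TM on its brightest probe set. It averaged 11.31 in Atf6a-/- TM and 10.18 in Atf6a-/- vehicle livers, against 10.68 in wild-type TM and 10.22 in wild-type vehicle livers. These Btf3 levels are on the deposited, quantile-normalized scale, and their part in the calls under this scaling was not tested.

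Foxa3 was 8.69, 9.15 and 8.37 in Atf6a-/- TM livers, 8.34, 8.35 and 7.65 in wild-type TM livers, 8.02, 8.92 and 9.004 in Atf6a-/- vehicle livers and 8.90, 9.20 and 9.01 in wild-type vehicle livers. Unlike Cebpa, Onecut1 and Prox1, its lowest mean was in wild-type TM livers, which lay below the Atf6a-/- TM and wild-type vehicle livers without overlap. The difference with TM was 0.09 ± 0.28 in Atf6a-/- livers (limma adjusted p = 0.870) and -0.92 ± 0.28 in wild-type livers (limma adjusted p = 0.0752). Between genotypes after TM it was 0.62 ± 0.28 (limma adjusted p = 0.167), and the responses differed by 1.01 ± 0.39 (limma adjusted p = 0.147, 95% interval 0.15 to 1.87). The wild-type difference passed the threshold in 6 of 26 alternative settings.

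Gata4 and Gata6 were called in none of the 5 comparisons. Gata4 was 6.46, 6.64 and 6.10 in Atf6a-/- TM livers, 6.56, 6.54 and 6.46 in wild-type TM livers, 6.55, 6.42 and 6.55 in Atf6a-/- vehicle livers and 6.69, 6.45 and 6.24 in wild-type vehicle livers. Gata6 was 6.75, 7.02 and 6.59 in Atf6a-/- TM livers, 6.77, 6.87 and 6.74 in wild-type TM livers, 7.03, 6.62 and 6.51 in Atf6a-/- vehicle livers and 7.33, 6.82 and 6.68 in wild-type vehicle livers. The groups of either gene overlapped in each comparison. With TM in Atf6a-/- livers the 95% interval was -0.42 to 0.20 for Gata4 and -0.33 to 0.46 for Gata6, so that a change of 1.5-fold (0.58) lay outside both intervals. Under the same reference gene scaling, Gata4 was -0.63 and was called. Over the 5 comparisons the largest difference in size was 0.17 for Gata4 and 0.22 for Gata6. The dimmer second Gata4 probe set and the 2 others of Gata6 were not called either. The second Gata4 probe set averaged 4.05 over all 12 arrays, and the dimmest of Gata6 averaged 3.96. Both means were beneath the lowest array median, 4.64, so these probe sets could hardly show a fall. The other Gata6 probe set averaged 4.98, above the array medians.

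Counted by overlap, 4 of 8 members were lower in all wild-type TM livers than in all wild-type vehicle livers and 1 was higher, where 12.5% and 10.6% of all probe sets were. The 4 were Cebpa, Onecut1, Prox1 and Foxa3, and the 1 was Foxa1. In Atf6a-/- livers, Cebpa, Onecut1 and Prox1 (3 of 8) were lower after TM without overlap, where 20.1% of all probe sets were. In the comparison of genotypes after TM, Cebpa, Onecut1, Prox1 and Foxa1 (4 of 8) were lower without overlap, against 13.6% of all probe sets, and Foxa3 (1 of 8) was higher, against 16.3%. The median difference over the 8 members was -0.45 with TM in Atf6a-/- livers, -0.37 with TM in wild-type livers and -0.48 between genotypes after TM, and the median over all probe sets was -0.01, -0.01 and -8e-04 in the same comparisons. The TM comparison of Atf6a-/- livers and the comparison of genotypes after TM use the same 3 Atf6a-/- TM arrays, so their values are not independent.

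**Figure D3:**
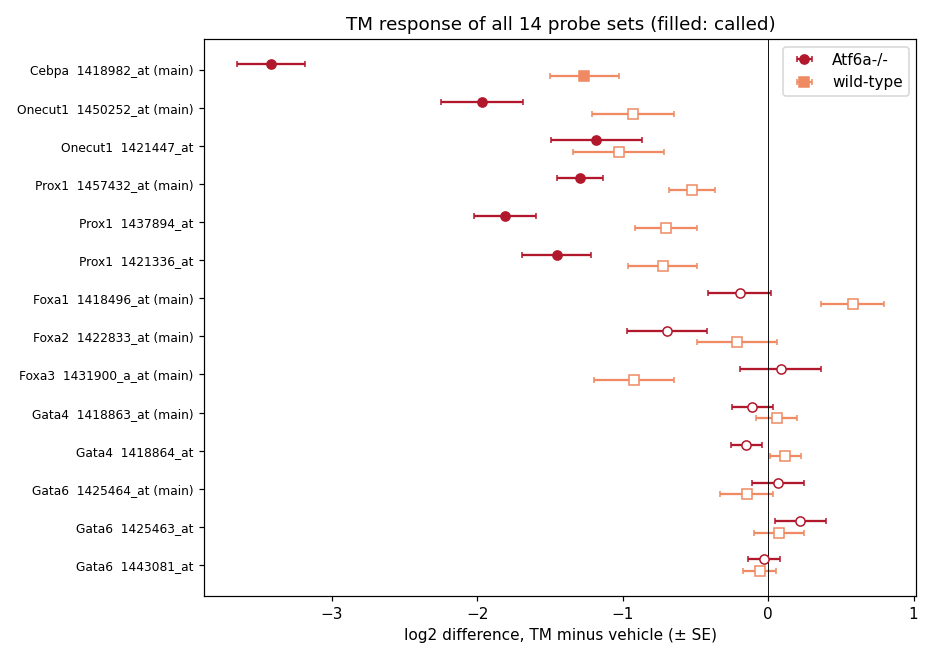
Log2 difference between TM and vehicle livers (x axis, ± SE from the limma fit) for all 14 probe sets of the 8 factors (y axis), with circles for Atf6a-/- and squares for wild-type; filled symbols were called. All 3 Prox1 and both Onecut1 probe sets are filled for Atf6a-/- livers, and Cebpa alone is filled for wild-type livers.

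By pattern over the 12 arrays, each gene centred on its own mean, Gata4 and Gata6 were the most alike pair of members (root mean square difference 0.17), and Onecut1 and Prox1 were the nearest pair among those that fell (0.46). Cebpa was 0.74 from Onecut1 and 0.93 from Prox1. Among 6582 other genes with a mean level of at least 7, the nearest to Cebpa were Gm2a and Aco1 (0.26 each, where Cebpa itself varied by 1.44), and the nearest to Prox1 were Rnf123 and Txndc15 (0.12 and 0.14, against 0.55). The nearest to Onecut1 were Arhgap29 and Nanp (0.28 each, against 0.90). The nearest to Foxa1 were Zbtb42 and Dcun1d4 (0.17 and 0.20, against 0.35), to Foxa2 Rbm25 and Ggnbp2 (0.25 each, against 0.41) and to Foxa3 Ikbkg and Stat6 (0.29 each, against 0.47). For Gata4 they were Dusp28 and Tab1 (0.10 each, against 0.16) and for Gata6 Chkb and Med1 (0.14 each, against 0.22), where there was little variation to match.

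Among close relatives of the members, Ddit3, Cebpg and Onecut2 changed. Of 11 measured relatives, 2 were called higher and 1 lower with TM in Atf6a-/- livers, where 11.9% and 9.18% of all probe sets were. With TM in wild-type livers 1 was higher and 1 lower, where 2.62% and 2.61% of all probe sets were. Onecut2, the paralogue of Onecut1, averaged 7.02 ± 0.17 in Atf6a-/- TM livers and 8.58 ± 0.24 in Atf6a-/- vehicle livers, against 7.92 ± 0.15 in wild-type TM livers and 8.75 ± 0.07 in wild-type vehicle livers (SD, n = 3 each). It was called lower in both responses (-1.56 ± 0.13 and -0.83 ± 0.13) and between genotypes after TM (-0.90 ± 0.13, limma adjusted p = 5.08e-04). Ddit3 encodes the C/EBP family member CHOP and is induced by ER stress. With TM it was higher by 6.38 ± 0.54 in Atf6a-/- livers and by 4.25 ± 0.54 in wild-type livers on its brighter probe set. On the other it was higher by 2.25 and 1.91. On the brighter, wild-type TM livers spread from 9.81 to 12.87 (SD 1.55) and overlapped the Atf6a-/- TM livers (12.52 to 13.04). Ddit3 was called there neither between genotypes after TM nor for the difference of the responses. Cebpg, a short C/EBP protein, was higher by 0.89 ± 0.23 with TM in Atf6a-/- livers (limma adjusted p = 0.0119). Its means were 9.47 in Atf6a-/- TM and 8.58 in Atf6a-/- vehicle livers. They were close to these in wild-type livers, at 9.50 after TM and 8.71 after vehicle, although the wild-type rise was not called. These means are of its brightest probe set. On the second, Cebpg averaged 8.30 after TM and 6.68 after vehicle in Atf6a-/- livers, against 7.76 and 6.84 in wild-type livers. On the dimmest the means were 5.22 and 4.67, against 4.94 and 4.69. Cebpb and Cebpd, the C/EBP genes of the acute-phase response, were not called, with -0.06 and 0.54 in Atf6a-/- livers.

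The other liver-enriched factors include nuclear receptors, PAR bZIP clock outputs and homeobox genes. Of 15 measured, 13 were called lower and 0 higher with TM in Atf6a-/- livers, 5 lower and 0 higher with TM in wild-type livers, and 11 lower and 0 higher in Atf6a-/- against wild-type livers after TM. Their median differences were -1.80, -0.58 and -1.04. The shares of all probe sets called lower in these comparisons were 9.18%, 2.61% and 5.85%. The largest falls in Atf6a-/- livers were those of the clock output factor Dbp (-5.20 ± 0.31), the fatty acid oxidation regulator Ppara (-4.91 ± 0.18) and the xenobiotic receptor Nr1i3 (-4.81 ± 0.30). In wild-type livers they were those of the T-box repressor Tbx3 (-1.88 ± 0.23), Ppara (-1.20 ± 0.18) and the bile acid receptor Nr1h4 (-1.09 ± 0.15). Hnf4a, a factor that shares enhancers with several members and was singled out after its values were seen, averaged 11.10 ± 0.34 in Atf6a-/- TM livers and 12.28 ± 0.17 in Atf6a-/- vehicle livers, and 11.81 ± 0.18 in wild-type TM livers and 12.52 ± 0.07 in wild-type vehicle livers (SD, n = 3 each). It was called lower in both responses on its brightest of 4 probe sets (-1.18 ± 0.16 and -0.71 ± 0.16, limma adjusted p = 1.18e-04 and 0.0199), and in wild-type livers the other 3 probe sets, at -0.74, -0.69 and -0.47, did not pass.

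The genes described as targets of the members encode enzymes and plasma proteins made by hepatocytes. Of 14 measured of 16 listed, 8 were called lower and 1 higher with TM in Atf6a-/- livers (9.18% and 11.9% of all probe sets). With TM in wild-type livers 2 were lower and 1 higher (2.61% and 2.62%). In Atf6a-/- against wild-type livers after TM, 7 were lower and 0 higher (5.85% and 8.49%). Pck1, the gluconeogenic enzyme gene bound by C/EBPα and FOXA proteins, averaged 7.35 ± 1.40 in Atf6a-/- TM livers and 13.21 ± 0.22 in Atf6a-/- vehicle livers, against 13.15 ± 0.36 in wild-type TM livers and 13.18 ± 0.21 in wild-type vehicle livers (SD, n = 3 each). It was called lower in Atf6a-/- livers (-5.86 ± 0.50), with -0.04 in wild-type livers, and the responses differed by -5.82 ± 0.71 (limma adjusted p = 3.69e-04). Gys2, the liver glycogen synthase, had a TM difference of -4.67 ± 0.59 in Atf6a-/- livers and of 0.12 in wild-type livers, and its responses differed by -4.78 ± 0.84 (limma adjusted p = 0.00356). Cyp7a1, the rate-limiting enzyme of bile acid synthesis, was lower in both genotypes (-5.77 ± 0.38 and -2.28 ± 0.38). Its Atf6a-/- TM mean was 4.73, with the lowest liver at 4.52, close to the array medians, so the Atf6a-/- size may be understated. On its dimmer probe set Cyp7a1 averaged 4.42 after TM and 7.96 after vehicle in Atf6a-/- livers, and 5.56 and 7.26 in wild-type livers. F10, the coagulation factor X gene, was lower in both genotypes too (-3.24 ± 0.19 in Atf6a-/- and -0.86 ± 0.19 in wild-type livers), and it was lower in Atf6a-/- than in wild-type livers after TM (-2.40 ± 0.19, limma adjusted p = 6.82e-06). Igfbp1, an insulin-repressed FOXA target, was higher in both (2.00 ± 0.51 in Atf6a-/- and 2.07 ± 0.51 in wild-type livers). The wild-type calls of F10 and Igfbp1 were each lost in 7 alternative settings. Alb and G6pc were not called, with -0.48 and -0.15 in Atf6a-/- livers.

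**Figure D4:**
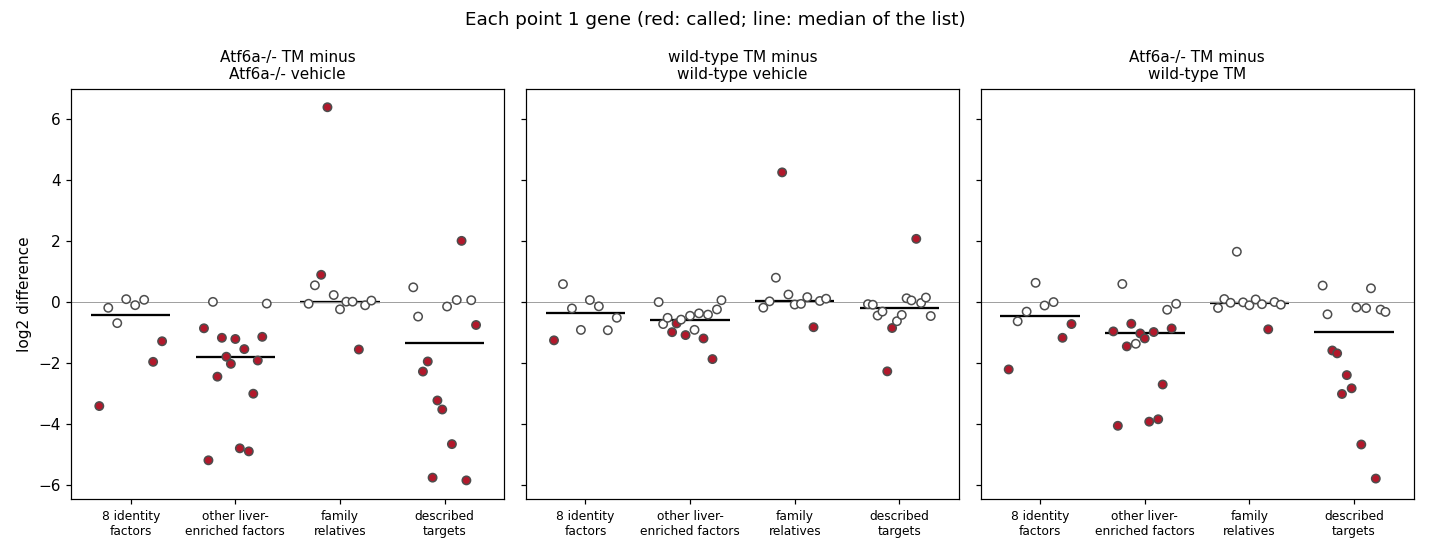
Log2 difference (y axis) of each measured gene in 4 lists (x axis), in panels for Atf6a-/- TM minus Atf6a-/- vehicle, wild-type TM minus wild-type vehicle and Atf6a-/- TM minus wild-type TM; each point is 1 gene, red points were called and a line marks the list's median. In the first panel 3 of 8 identity factors and 13 of 15 other liver-enriched factors are red and below 0.

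Values that moved alongside these results were as follows. The first principal component held 68.3% of the variance and placed Atf6a-/- TM livers at 113.6 to 119.9, wild-type TM livers at -12.9, 29.5 and -11.9, and the 6 vehicle livers at -61.5 to -55.8, so that wild-type TM animal 2 stood apart from its group. Its removal changed no call of Cebpa, Onecut1 or Prox1. Atf6 itself was 6.88, 6.85 and 6.60 in Atf6a-/- vehicle livers, against 8.54, 8.42 and 8.49 in wild-type vehicle livers, but 9.60, 9.81 and 9.23 in Atf6a-/- TM livers, against 9.30, 9.72 and 9.49 in wild-type TM livers. On its dimmer probe sets, Atf6 averaged 8.84 and 9.06 in Atf6a-/- TM livers, against 8.31 and 7.62 in wild-type TM livers. On both, the Atf6a-/- TM livers were the higher without overlap. Which part of the transcript each probe set reads is not given in the sources used here, so after TM this gene does not check the labels. Xist, the RNA of the inactive X chromosome in females, was 12.29 in animal 1 of the Atf6a-/- TM group, 12.39 in animal 1 of the Atf6a-/- vehicle group and 12.19 in animal 1 of the wild-type vehicle group, and between 5.37 and 6.68 in the other 9 livers, all 3 wild-type TM livers among them. With Xist as a covariate, the calls of Cebpa, Onecut1 and Prox1 with TM in Atf6a-/- livers and between genotypes after TM held. With TM in wild-type livers Foxa3 (-1.03, limma adjusted p = 0.0477) and Prox1 (-0.59, limma adjusted p = 0.0449) passed beside Cebpa, and the difference of the Prox1 responses did not pass (-0.71, limma adjusted p = 0.057). Among hepatocyte markers, 5 of 6 were called lower with TM in Atf6a-/- livers and 1 of 6 in wild-type livers, and their mean level was 12.28 to 13.14 in Atf6a-/- TM livers, 13.66 to 14.14 in wild-type TM livers, 14.13 to 14.36 in Atf6a-/- vehicle livers and 14.23 to 14.32 in wild-type vehicle livers.

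Of the other cells that make some members, bile duct markers (5 measured, with Krt7 and Cftr under the array median in each group) had mean levels of 4.63 to 4.80 in Atf6a-/- TM livers and 4.75 to 5.12 in Atf6a-/- vehicle livers, and none was called. Krt19 averaged 4.53 ± 0.31 in Atf6a-/- TM livers and 5.28 ± 0.75 in Atf6a-/- vehicle livers (SD, n = 3 each). Its Atf6a-/- TM mean was under the array median. The highest Atf6a-/- vehicle liver was at 6.12, and wild-type vehicle livers averaged 4.64. Epcam averaged 6.35 in Atf6a-/- TM livers and 6.28 in Atf6a-/- vehicle livers, and Sox9 averaged 5.39 and 5.50. With Krt7, Cftr and Krt19 this dim, these markers cannot show whether bile duct cells fell, which was not tested. The 2 lymphatic endothelial markers measured, Pdpn and Flt4, which bear on Prox1, were not called and had mean levels of 6.52 to 6.70 in Atf6a-/- TM livers and 6.47 to 6.77 in Atf6a-/- vehicle livers. Endothelial markers were 6.96 to 7.34 in Atf6a-/- TM and 7.26 to 7.65 in Atf6a-/- vehicle livers (3 of 9 called lower), stellate cell markers 6.90 to 7.21 and 7.22 to 7.30 (3 of 10 lower, 1 higher), Kupffer cell markers 7.34 to 8.01 and 8.14 to 8.74 (4 of 7 lower, 1 higher), neutrophil markers 6.28 to 7.51 and 4.65 to 5.05 (2 of 4 higher, S100a8 and S100a9, with Mpo under the array median) and lymphocyte markers 4.72 to 4.91 and 5.03 to 5.31 (1 of 5 lower). With TM in wild-type livers, 3 of 7 Kupffer cell markers were called lower and 1 higher. There 1 of 10 stellate cell markers was lower, 1 of 4 neutrophil markers higher, and no endothelial or lymphocyte marker was called. In Atf6a-/- against wild-type livers after TM, no Kupffer cell or lymphocyte marker was called. In that comparison 2 of 4 neutrophil and 1 of 9 endothelial markers were higher, and of 10 stellate cell markers 1 was higher and 1 lower. Of all probe sets, 9.18% were called lower and 11.9% higher with TM in Atf6a-/- livers, and 2.61% and 2.62% in wild-type livers. Between genotypes after TM, 5.85% were lower and 8.49% higher. The part of these cell types in the members' values was not tested.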

How the data were processed

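Whole liver RNA of 12 mice was hybridised to 12 one-colour arrays, and the authors deposited log2 values of each probe set, computed by RMA in the affy package, which corrects background and quantile-normalizes the arrays. The submitters' processing notes also name limma. Of 45101 probe sets, 64 control probe sets were left out, and the other 45037 were fitted here on the deposited log2 values with limma 3.58.1 in R 4.3.3 (group means, eBayes, 5 contrasts, all 12 arrays), with p-values adjusted by Benjamini-Hochberg over all of them. A call needed an adjusted p under 0.05 and a difference over 1.5-fold. Platform annotation gave 34945 probe sets 1 gene symbol and 932 several. No gene was named from a probe set with several, except Ppia in the reference gene scaling, which had no probe set of its symbol alone. Groups were taken from the sample titles.

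The 8 members, the gene lists and the tests were chosen with earlier results of these data known. The rule for named genes took all members, Atf6, up to 3 called genes with the largest rise and 3 with the largest fall per list and comparison, and the 2 genes nearest in pattern to each member. Quantile normalization equalises the arrays, so a shift of all transcripts in 1 group would be removed. The number of arrays, 3 a group, limits the precision, and the median of each array was 4.64 to 4.71, under which no fold is given. Alternatives were quantile, loess, median, reference gene and spike-in scaling, a filter on dim probe sets, other probe sets, limma-trend, array weights, an Xist covariate, the replicate number as a block, the methods' t-test, fits of single comparisons and leaving out each animal. The fit was tested on simulated data.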

Additional observations from a re-analysis of the deposited data

Results flagged for a closer look

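The TM response of Cebpa differed between the genotypes by -2.16 ± 0.33 on the log2 scale (limma interaction term, adjusted p = 0.00161), with a difference of -3.42 in Atf6a-/- livers and -1.26 in wild-type livers. The call held in all 23 alternative settings run for it, with values between -2.60 and -1.84. The TM response of Prox1 differed by -0.77 on its brightest probe set (limma adjusted p = 0.0476) and by -1.11 on its second (limma adjusted p = 0.0365), where the Atf6a-/- TM mean lay beneath the array medians. On the remaining probe set it did not pass (limma adjusted p = 0.243). On the brightest, 12 of 24 alternative settings took the call away, and all kept the direction. No test for a single outlying liver was run.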

How the results depend on the processing

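The called falls of Cebpa, Onecut1 and Prox1 with TM in Atf6a-/- livers held in every alternative run for them (26, 27 and 27). Counts of members called with TM in wild-type livers, 1 in the report, were 2 with reference gene scaling, spike-in scaling, the filter on dim probe sets, array weights and a fit of the compared groups alone, 3 with the mean of all probe sets, the Xist covariate and the unadjusted t-test of the methods, 0 with that t-test after Benjamini-Hochberg adjustment, and 1 to 2 with 1 animal left out. Reference gene scaling gave 6 members in Atf6a-/- livers, where 20714 of all 45037 probe sets were called. It gave 5 between genotypes after TM (11198 probe sets) and 4 for the difference of the responses (5945 probe sets). The member count for the difference of the responses was 1 with spike-in scaling or the Xist covariate and 1 to 3 with 1 animal left out. The adjusted t-test gave 0 members between genotypes after TM, where the adjusted p of Cebpa was 0.0663, against 0.0649 in wild-type livers. Values of uncalled Foxa genes that changed sign were, with TM in wild-type livers, Foxa2 (0.13 with spike-in scaling, -0.43 to 0.027 with 1 animal left out), and with TM in Atf6a-/- livers Foxa1 (0.28 with spike-in scaling, -0.46 to 0.054) and Foxa3 (-0.004 with cyclic loess, -0.43 with reference gene scaling, -0.23 to 0.27). The cause was not tested.

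Probe sets called with TM in wild-type livers numbered 5411 with spike-in scaling and 1 with the adjusted t-test (2353 in the report's fit). With TM in Atf6a-/- livers they numbered 20714 with reference gene and 16744 with spike-in scaling (9480), of which 12.7% and 85.8% were higher (56.4%). Between genotypes after TM they numbered 11198 with reference gene scaling and 1253 with the adjusted t-test (6458), and after vehicle 38 with the unadjusted and 0 with the adjusted t-test and 0 to 4 with 1 animal left out (1). The median over all probe sets shifted by -0.52 with reference genes and by 0.48 with spike-ins for TM in Atf6a-/- livers. Between genotypes after TM it shifted by -0.43 and 0.21, and 14.3% and 74.9% of the calls were higher (59.2%). In wild-type livers the split was 40.2% and 88.9% (50.1%), and for the difference of the responses 13.3% and 63.1% (55.5%).

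The titles number the animals but do not state that same-numbered animals are paired. Same-numbered deviations correlated between -0.18 and 0.37, which cannot show whether a pairing exists. With the number as a replicate block, Prox1 lost its call for the difference of the responses (-0.77, limma adjusted p = 0.0719), and Foxa1 gained one there (adjusted p = 0.0336) and between genotypes after TM (-0.64, adjusted p = 0.00945). No other member's call changed.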
